A study of Mus musculus with 2 samples.

Results

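Pseudogenes are gene copies that, as annotated, no longer make the protein of the gene they came from. In poly-A RNA sequencing of adult mouse liver, 228 of the 7906 pseudogenes listed (2.88%) reached 1 TPM in both libraries. TPM is a level scaled by length, with the same sum in every library. Members were all genes with a GENCODE M21 gene type containing the word pseudogene and at least 1 TPM in replicate 1 and in replicate 2, so the levels below describe the choice and are not findings by themselves. The tables list 43346 genes, of which 10701 reached 1 TPM in both libraries. The study holds 1 group and 2 libraries, labelled biological replicates 1 and 2, with no treatment or mutation. Each is whole liver of C57BL/6J mice, a common inbred laboratory strain, taken at 8 weeks of age, with male and female littermates pooled. Both libraries carry the same donor identifier, and whether they come from separate animals is not stated, so a difference between them may be technical. The libraries were made with strand information from poly-A RNA and read in pairs of 76 bases. They held 60770411 estimated reads in replicate 1 and 61688916 in replicate 2. All 7 hepatocyte markers checked (Alb, Apoa1, Ttr, Serpina1a, Hnf4a, Cps1 and Fgb) were present, at 223.89 to 34762.5 TPM.

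A processed pseudogene arises when an mRNA is copied back into DNA and inserted elsewhere, which leaves a copy without introns. An unprocessed pseudogene comes from a duplicated stretch of DNA, and a unitary pseudogene is a gene that lost its function with no working copy left in that species. A polymorphic pseudogene is broken in the reference strain and intact in other strains. Fragments of mitochondrial DNA inserted into nuclear chromosomes are also annotated as pseudogenes. Short reads from a copy that matches its parent gene fit both places, so a counting program must divide them by estimate.

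For each gene the deposited tables give an estimated read count and a posterior standard deviation (SD) of that count, which widens where reads can be placed on several genes. That SD as a percent of the count, the larger of the 2 libraries, graded the members here. Sharing was called low at 1% or less, middle above 1% and up to 10%, and high above 10%. By this grade 42 members had low sharing, 104 middle and 82 high.

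The members were a small part of the RNA apart from the mitochondrial copies. Together they held 627328 reads in replicate 1 and 629274 in replicate 2, which is 1.05% and 1.04% of all gene reads, and 4.36% and 3.87% of all TPM. The most abundant member alone held 44.7% of member TPM in replicate 1 and 42.9% in replicate 2, and the 10 most abundant held 86.4% and 86.1%. The members other than the 2 most abundant, Gm29216 and Gm10222, came to 1.49% of library TPM in replicate 1 and 1.32% in replicate 2. These shares still include other mitochondrial copies. Of the 228 members, 89 reached 10 TPM in both libraries, 23 reached 100 TPM and 4 reached 1000 TPM. The median of the members' mean TPM was 7.85, and that of the protein-coding genes at 1 TPM or more was 10.8. Most pseudogenes listed, 6667, had 0 reads in both libraries; a count of 0 allows up to 3 reads. Just inside the limit were Gm11451 (2.09 TPM in replicate 1, 1.00 in replicate 2), Tmem181b-ps (1.01 and 1.90) and Gm21451 (1.01 and 1.15), and just outside it were Zfp-ps (0.99 and 2.38), Gm2962 (0.98 and 2.19) and Gm5970 (0.96 and 1.61).

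**Figure D1:**
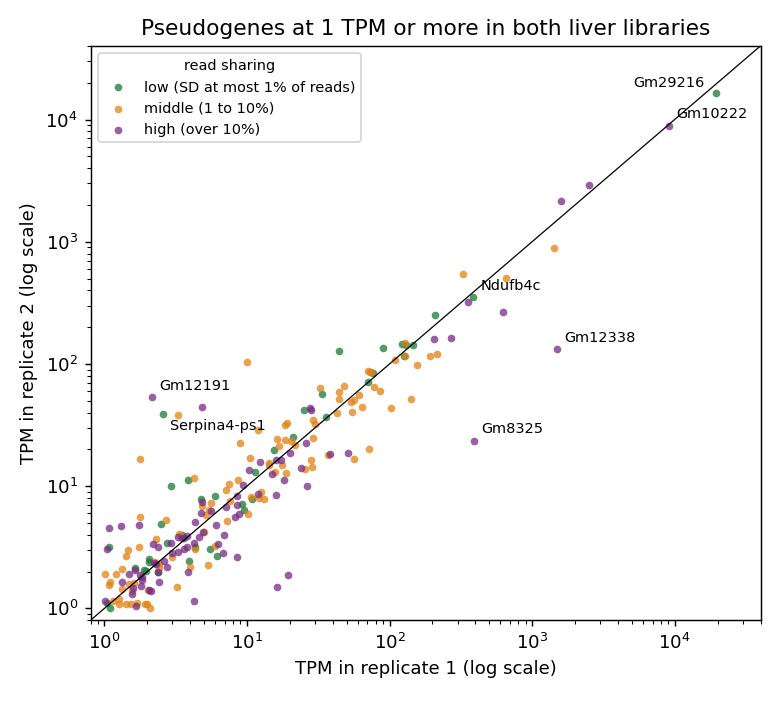
TPM of each of the 228 pseudogenes in replicate 1 (horizontal, log scale) and replicate 2 (vertical, log scale), coloured by grade of read sharing; the line marks equal TPM. Gm29216 and Gm10222 stand at the top, and Gm12338, at 1504 TPM in replicate 1 and 132 in replicate 2, is among those far from the line.

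By gene type, 165 members were processed pseudogenes, 18 transcribed processed, 20 unprocessed, 15 transcribed unprocessed, 7 polymorphic and 3 transcribed unitary. Of all processed pseudogenes listed 3.08% were members, against 1.03% of the unprocessed ones. No immunoglobulin or T cell receptor pseudogene was a member.

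The most abundant members were copies of the mitochondrial genome, which encodes a few subunits of the respiratory chain and of ATP synthase. Of 25 listed pseudogenes with a mitochondrially encoded parent, 7 were members. A parent here is the protein-coding gene whose transcript gave the best same-strand alignment over at least 50% of the pseudogene. Of these members 6 lie side by side on the minus strand of chromosome 1, at chr1:24612407-24616197 (GRCm38, the mm10 assembly). They are Gm10222, Gm28438, Gm28437, Gm10925, Gm28661 and Gm29216, in order of position, and their parents are mt-Nd4l, mt-Nd3, mt-Co3, mt-Atp6, mt-Co2 and mt-Co1. The 6 together held 466943 reads in replicate 1 and 457998 in replicate 2.

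Gm29216, a copy of 492 bases of the gene for cytochrome c oxidase subunit mt-Co1, had 19517 TPM in replicate 1 and 16588 in replicate 2. Its parent mt-Co1 had 25549 and 25252 TPM. The copy matched mt-Co1 at 99.8% of aligned bases, and 96.9% of its 76-base windows, the read length of these libraries, also occurred in other transcripts. Its posterior SD was nevertheless 0.205% and 0.244% of its 288975 and 255771 reads, in the low grade. The stretch of its alignment below, from the coding region of the parent, was chosen where the copy differs most, which is by 1 base. The alignment to the parent covered 98.2% of the copy, and bases outside it could not be chosen for the stretch shown. The 76-base windows also take single reads and not pairs. Whether reads over the differing base, over unaligned bases or in pairs account for the low SD was not tested. Gm29216 stands at chr1:24616129-24616188 (minus strand) and mt-Co1 at chrM:6390-6449 (plus strand), and capitals mark bases that differ from the parent.
Gm29216: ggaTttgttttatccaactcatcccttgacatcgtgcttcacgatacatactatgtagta
mt-Co1: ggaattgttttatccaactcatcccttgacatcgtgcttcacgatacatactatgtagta

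Gm10222 was identical to mt-Nd4l, a subunit of complex I, over its whole length and had more TPM than it in both libraries. It had 9176 TPM in replicate 1 and 8924 in replicate 2, while mt-Nd4l had 1576 and 1214 TPM. Its SD was 13.8% and 12.1% of its reads, and that of mt-Nd4l reached 86.5%. Gm28438, the copy of mt-Nd3, was also listed above its parent, with 652 TPM in replicate 1 and 509 in replicate 2 against 111 and 126 TPM for mt-Nd3. The copies of the other parents were listed below them. Gm28437 had 2499 and 2931 TPM against 11518 and 9417 for mt-Co3, Gm28661 had 1591 and 2171 TPM against 3899 and 2633 for mt-Co2, and Gm10925 had 629 and 266 TPM against 6056 and 4811 for mt-Atp6. These 3 copies were identical to their parents over their whole length. Their SDs were large, up to 90.7% of the reads for Gm28437, 35.9% for Gm28661 and 171% for Gm10925, the only member with an SD above its own count.

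A second copy of mt-Co2, Gm13341 on chromosome 2, contrasted with Gm28661. It matched its parent at 95.9% of bases and had 9.54 TPM in replicate 1 and 6.36 in replicate 2, with an SD of at most 0.685% of its 225 and 154 reads. The windows below show the coding stretch where both copies together differ most from mt-Co2. They lie at chr1:24615062-24615121 (minus) for Gm28661, chr2:22587471-22587530 (minus) for Gm13341 and chrM:7457-7516 (plus) for mt-Co2. In this window Gm28661 had 0 differences from mt-Co2 and Gm13341 had 6.
Gm28661: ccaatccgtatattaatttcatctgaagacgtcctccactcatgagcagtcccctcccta
Gm13341: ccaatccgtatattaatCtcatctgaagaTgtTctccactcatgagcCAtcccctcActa
mt-Co2: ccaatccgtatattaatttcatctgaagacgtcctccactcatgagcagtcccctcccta

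The 7 copies held 13.9% of the reads assigned to copies and mitochondrially encoded mRNAs together in replicate 1, and 14.7% in replicate 2. In TPM the copies came to 3.41% of replicate 1 and 3.14% of replicate 2, and the mRNAs to 6.51% and 5.47%. Whether any of these reads came from chromosome 1 was not tested, since most of the copies differ from the mitochondrial genome at few bases or none.

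Across all members, a parent was found for 212, with 174 distinct parents. Identity was high: the median was 99.5% of aligned bases, 140 members were at 99% or more, and 44 were identical over their full length. Identity was under 95% for 22. On 182 of the 212 the parent lay on another chromosome. No parent was found for 16 members, among them 11 of the low grade.

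The grades of read sharing ran parallel to sequence. Median identity was 94.5% in members of low sharing, 99.4% in the middle grade and 99.8% in the high grade, and the median share of 76-base windows found in transcripts of other genes was 4.95%, 70.4% and 87.7%. Over the 228 members the SD as a percent of reads had a Spearman rho of 0.57 with the share of windows, and over the 212 with a parent one of 0.43 with identity. These describe genes within these libraries, which are not independent replicates. For 22 members the SD was 0 and the counts were whole in both libraries; at most 8.35% of their windows occurred elsewhere. There were exceptions. Gm29216, Ndufb4c, Rpl27-ps3 and Gm15500 were of low sharing although 95% or more of their windows occurred in other transcripts. Windows came from the longest M21 transcript, whose length equalled the listed length for 153 of the 228 members. For Rpl27-ps3 it was 411 bases against 475 listed, so its windows may not cover all that was counted. For Gm29216, Ndufb4c and Gm15500 the lengths were equal. The search for windows left out genes that overlap the pseudogene. With that limit, Gm26712 and Gm17084 in the high grade had no window found elsewhere. Both overlap an exon of a protein-coding gene on the same strand, Pyurf for Gm26712 and Ripk1 for Gm17084. In all, 6 members overlapped such an exon. The span of a protein-coding gene, introns included, was overlapped by 26 members on the same strand and by 37 on the opposite strand. Among the 26 were Ndufb4c, which overlaps Mroh5, and Gm12191, which overlaps Cnot6. Whether the deposited counts used strand is not stated.

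**Figure D2:**
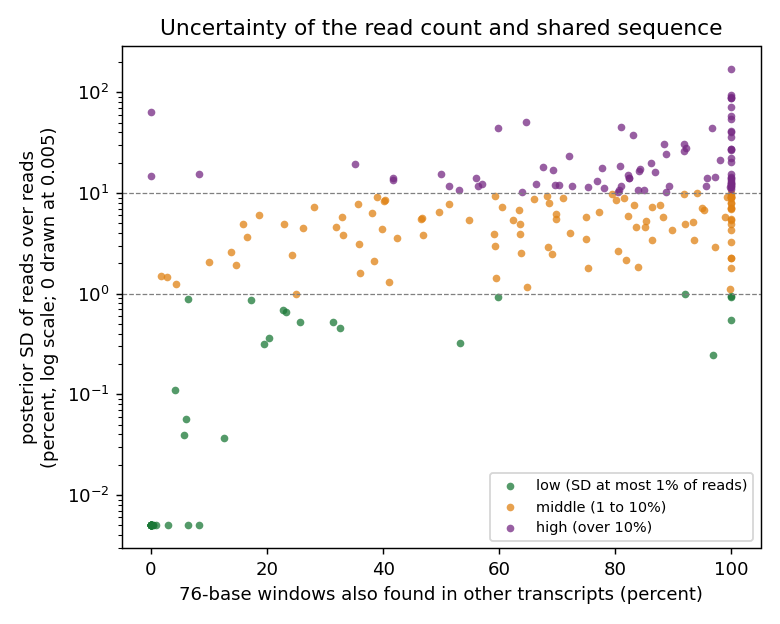
Vertical: posterior SD as a percent of estimated reads (log scale, the larger of the 2 libraries, 0 drawn at 0.005). Horizontal: percent of 76-base windows found in transcripts of other genes that do not overlap the pseudogene. Each point is 1 pseudogene, and dashed lines mark 1% and 10%. Members of high sharing cluster at the right, and the low grade has a median of 4.95% of windows with 4 members at 95% or more.

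The share of listed pseudogenes that reached 1 TPM was higher at higher identity to the parent. It was 0.481% (5 of 1039) under 80% identity, 0.771% (11 of 1427) from 90 to under 95%, 4.91% (26 of 530) from 98 to under 99%, 12.6% (90 of 716) from 99 to under 100%, and 27.2% (50 of 184) at 100%. The bin from 80 to under 90%, at 0.292% (6 of 2052), was the lowest. It was also higher where the parent was abundant: 0.442% of pseudogenes with a parent under 1 TPM were members, and 7.08% of those with a parent at 100 TPM or more. Among pseudogenes of at least 99% identity with a parent of at least 100 TPM, 90 of 163 (55.2%) were members. Among those of the same identity with a parent under 1 TPM, 1 of 446 was. Reads divided between copies and transcription of the copies cannot be told apart from these shares. The parents themselves were abundant genes: 92 of the 173 listed (53.2%) reached 100 TPM in both libraries, against 9.77% of the protein-coding genes at 1 TPM or more.

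**Figure D3:**
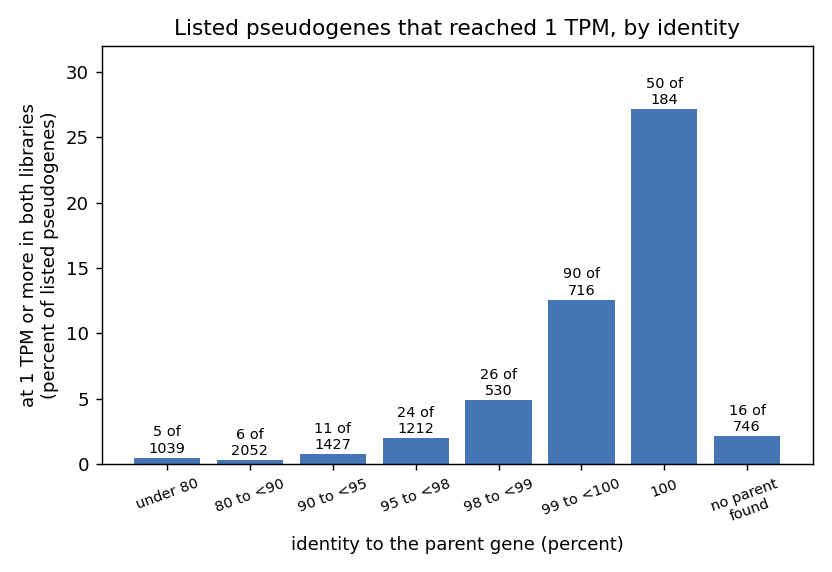
Percent of listed pseudogenes that reached 1 TPM in both libraries (bars), by identity to the parent gene; labels give members of listed. The bar at 100% identity stands at 27.2% and that from 80 to under 90% at 0.292%.

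Most members were listed far below their parents. Of 211 with a parent in the tables, 169 were below it in TPM in both libraries, 30 above it in both and 12 above it in 1 library only. The median member stood at 8.72% of its parent's TPM in replicate 1 and 7.17% in replicate 2. Of the 30 above their parent, 12 were of low sharing, and 10 had a parent under 1 TPM in both libraries.

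Several of the 30 were copies of housekeeping genes. Gm10774, a copy of the RNA polymerase subunit gene Polr2l on chromosome 2, had 1424 TPM in replicate 1 and 891 in replicate 2 on 1161 and 1148 reads, against 27.1 and 27.9 TPM for Polr2l. Its effective length, the number of positions at which a fragment can start and the divisor of TPM, was only 16.7 and 26.2 bases, and the copy overlaps an exon of Usp50 on the same strand. Ndufb4c, identical to the complex I subunit gene Ndufb4, had 387 and 352 TPM against 41.8 and 45.3 TPM for its parent, with an SD of 0.553% of its reads. Rpl27-ps3 had 210 and 249 TPM against 17.0 and 22.4 for the ribosomal protein gene Rpl27, and Gm15500 had 126 and 116 TPM against 5 and 11 TPM for Rpl5. Gm12481, identical to Serf2, had 328 and 542 TPM against 169 and 182 for that gene. Over the coding start of Ndufb4 the copy does not differ in any base; Ndufb4c is shown at chr15:73809837-73809896 and Ndufb4 at chr16:37654300-37654359, both on the minus strand. The SD of Ndufb4c was low with no difference between them in this window.
Ndufb4c: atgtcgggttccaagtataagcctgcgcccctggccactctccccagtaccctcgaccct
Ndufb4: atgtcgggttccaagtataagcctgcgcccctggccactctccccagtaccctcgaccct

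**Figure D4:**
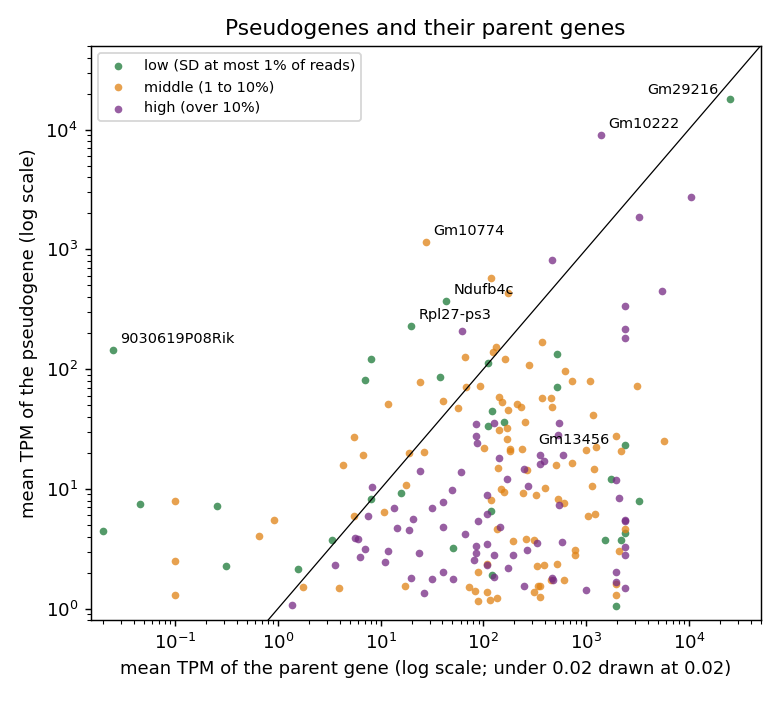
Mean TPM of each pseudogene (vertical, log scale) against mean TPM of its parent gene (horizontal, log scale), 211 pairs, coloured by grade of read sharing; the line marks equal TPM. Most points lie below the line, and Gm10222, Gm10774, Ndufb4c, Rpl27-ps3 and 9030619P08Rik lie above it.

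Grouped by the role of the parent, copies of cytosolic ribosomal protein genes were the most frequent family, with 59 members from 45 parents among 1388 listed (4.25%). Their levels ran from 1.04 to 216 TPM in replicate 1 and from 1.01 to 249 TPM in replicate 2. The family's median identity was 99.4%, with 6 members of low, 35 of middle and 18 of high sharing. Besides Rpl27-ps3, Gm10443 led the family in TPM, with 216 in replicate 1 and 122 in replicate 2, on 233 and 192 reads. Its effective length was only 22.1 and 32.1 bases, and copies of lower TPM such as Gm8730 had more reads (5296 and 6469). Gm10443 is an identical copy of Rps28, a protein of the small ribosomal subunit. Gm8730 on chromosome 8 and Gm9625 on chromosome 13, copies of the ribosomal stalk gene Rplp0, stood out by their low SD of at most 0.324% and 0.453%. Gm8730 had 122.5 and 147 TPM and Gm9625 70.3 and 71.7 TPM, against 523 TPM in each library for Rplp0. In the coding window where these copies together differ most from Rplp0, Gm8730 had 2 differences and Gm9625 had 3. The windows lie at chr8:102865603-102865662 (minus), chr13:67810382-67810441 (plus) and chr5:115560823-115560882 (plus).
Gm8730: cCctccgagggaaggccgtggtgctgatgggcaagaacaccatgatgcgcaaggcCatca
Gm9625: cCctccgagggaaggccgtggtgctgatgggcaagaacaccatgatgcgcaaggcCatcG
Rplp0: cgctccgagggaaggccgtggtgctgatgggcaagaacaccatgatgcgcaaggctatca

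Gapdh, the glycolytic dehydrogenase, had the most copies of any parent with several members: 225 pseudogenes were listed, 72 had reads and 11 were members. With Pgam1-ps2 and Pgk1-rs7, the glycolysis and lactate family held 13 members of 276 listed. The Gapdh copies held 26.4% of the reads on copies and Gapdh together in replicate 1 and 20.98% in replicate 2. Most of these lay on Gm10359, Gm7336 and Gm12671. Gm10359 had 353 TPM in replicate 1 and 323 in replicate 2, Gm7336 had 270 and 163 TPM and Gm12671 had 206 and 159 TPM, against 2536 and 2286 TPM for Gapdh. Their SDs reached 58.8%, 88.0% and 94.5% of their reads. Gm8941, which matches Gapdh at only 87.7%, had 20.98 and 25.1 TPM on 727 and 889 reads with an SD of 0. The coding window below separates these copies: Gm10359 and Gm7336 had 0 differences from Gapdh and Gm8941 had 12. They stand at chr5:105863326-105863385 (minus), chr7:51747014-51747073 (plus) and chr1:151136706-151136765 (plus), and the Gapdh window, bases 396 to 455 of the coding region, crosses an exon boundary on chromosome 6.
Gm10359: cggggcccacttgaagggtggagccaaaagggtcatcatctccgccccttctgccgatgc
Gm7336: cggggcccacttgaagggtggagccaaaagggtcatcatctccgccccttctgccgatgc
Gm8941: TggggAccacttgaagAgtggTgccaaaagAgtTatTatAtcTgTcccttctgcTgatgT
Gapdh: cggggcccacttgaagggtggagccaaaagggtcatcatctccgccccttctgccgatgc

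The smaller families were led by a few copies each. Of 134 listed pseudogenes of nuclear respiratory chain genes 9 were members, led by Gm12338, a copy of the cytochrome c oxidase subunit gene Cox7c, and Ndufb4c. Of 94 proteasome and ubiquitin copies 6 were members, led by Gm8325 (parent Ube2v1) and Gm13835, an identical copy of the proteasome subunit gene Psma3 with 70.5 TPM in replicate 1 and 86.8 in replicate 2, against 24.4 and 23.9 TPM for Psma3. Of 31 drug metabolism copies 5 were members, all of low or middle sharing. Cyp2d37-ps, most like the cytochrome P450 gene Cyp2d40, had 33.3 and 56.6 TPM, and Gstp-ps, a copy of the glutathione transferase gene Gstp2, had 8.93 and 22.5 TPM. Of 82 cytoskeletal copies 4 were members. Gm15725, a copy of the actin gene Actb, had 43.0 and 39.9 TPM, and it overlaps an exon of Lrrc58 on the same strand. Gm12715, a copy of Actg1, had 26.2 and 9.95 TPM. Of 129 copies of chaperones and prolyl isomerases 3 were members, led by Gm10123 (parent Ppia, 17.5 and 16.4 TPM) and Gm8355 (parent Hspa8, 8.55 and 8.35 TPM). Of 202 nucleosome and HMG copies 3 were members, among them H3f3c (1.08 and 4.52 TPM) and Gm8203 (parent H2afz, 2.22 and 2.37 TPM). By parent symbol, the plasma protein list (Serpin, Apo, Alb and Mup genes) had 1 member of 44. Ftl1 and Fth1 had none of 4. Relatives of Mug2, and Gm15590, whose parent was Ftl1-ps1, lie outside these lists. So does the member Serpina4-ps1, for which no parent was found. The 99 remaining members with a parent fell in no family.

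Of 78 listed copies of translation factor genes 3 were members. Eif4a-ps4, a copy of the RNA helicase gene Eif4a1, had 19.2 TPM in replicate 1 and 33.1 in replicate 2. Gm13456, a copy of the elongation factor gene Eef1a1, had 3.28 TPM in replicate 1 and 38.0 in replicate 2, on 188 and 2217 reads. Gm6548, another copy of Eef1a1, had 3.64 and 3.79 TPM. Eef1a1 itself had 2071 and 2336 TPM. Gm13456 matched Eef1a1 at 96.8% of bases and Gm6548 at 96.7%. In the coding window where both together differ most from Eef1a1, Gm13456 had 2 differences and Gm6548 had 6. They lie at chr2:40556976-40557035 (plus) and chr17:78850870-78850929 (minus), and the Eef1a1 window, bases 1249 to 1308 of the coding region, crosses an exon boundary on chromosome 9.
Gm13456: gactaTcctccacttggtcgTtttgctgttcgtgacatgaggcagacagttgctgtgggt
Gm6548: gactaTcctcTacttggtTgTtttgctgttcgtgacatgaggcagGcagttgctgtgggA
Eef1a1: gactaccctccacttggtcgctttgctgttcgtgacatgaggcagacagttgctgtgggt

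Members of the low grade, which rests on the SD, included both genes with several exons and processed copies. Of the 42 with low sharing, 24 had several exons, against 43 of all 228 members. By type 14 were processed, 3 transcribed processed, 7 unprocessed, 10 transcribed unprocessed, 5 polymorphic and 3 transcribed unitary. The 3 unitary members were Slc2a4rg-ps (2.49 TPM in replicate 1 and 4.94 in replicate 2), Thap6 (2.37 and 2.00) and 2810039B14Rik (1.90 and 2.08), each with an SD of 0. Hyi, a polymorphic pseudogene in this annotation whose gene is named for hydroxypyruvate isomerase, had 131 and 144 TPM on 4580 and 5132 reads, all of them placed with an SD of 0. The other 6 polymorphic members were H2-Q5 and H2-T10 of the class I histocompatibility family, the interferon-induced genes Gbp11, Mx2 and Oas1b, and the chemokine gene Cxcl11, at 1.05 to 2.94 TPM in replicate 1 and 1.10 to 10.02 TPM in replicate 2. Of these, Gbp11 (SD 2.06%) and H2-T10 (2.61%) were of middle sharing. In C57BL/6 mice Mx2, Oas1b and Cxcl11 are known to carry inactivating changes.

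Further members of low sharing had a protein-coding relative. Mug-ps1, related to the murinoglobulin gene Mug2, whose product is a protease inhibitor of plasma, had 90.6 TPM in replicate 1 and 135 in replicate 2 on 6009 and 12945 reads. Gm10319, another relative of Mug2, had 25.3 and 42.3 TPM. Pisd-ps1, a copy of the gene for phosphatidylserine decarboxylase, which makes phosphatidylethanolamine in mitochondria, had 44.4 TPM in replicate 1 and 127 in replicate 2. 9030619P08Rik, whose nearest protein-coding relative by sequence was Ly6g at 77.2%, had 145 and 142 TPM while Ly6g, a surface protein of neutrophils, was listed at 0 and 0.05 TPM. Mrpl23-ps1, identical to the mitochondrial ribosomal protein gene Mrpl23 over 93.1% of its length, had 77.2 and 83.9 TPM against 7.69 and 6.56 TPM for Mrpl23.

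The only comparison the design allows is of the libraries with each other. Reads were scaled by TMM in edgeR, and the 14533 genes with 20 or more reads over the 2 libraries were tested for a difference by an exact binomial test (two-sided, conditional on the total), with p-values adjusted over all of them after Benjamini and Hochberg. The test measures counting error only, so it compares these libraries and no condition, and all 228 members could be tested. Log2 ratios are replicate 1 over replicate 2. Of the members 84 were called higher in replicate 1 (36.8%; 29.7% of all genes tested) and 53 higher in replicate 2 (23.2%; 28.0% of all genes tested). In either direction 137 were called, 60.1% against 57.7% of all genes. Scaling moved the split. By total reads the calls were 62 higher in replicate 1 and 67 in replicate 2, and by spike-ins 57 and 68, so the share of member calls higher in replicate 1 was 61.3%, 48.1% and 45.6% under the 3 scalings. Over all genes tested that share was 51.5%, 30.7% and 26.3%. The median log2 ratio of all genes tested was 0.0041 by TMM, -0.13 by total reads and -0.15 by spike-ins, and that of the members was 0.12, -0.0054 and -0.035. Where a call also required count intervals of 2 posterior SDs that do not overlap, 59 members were higher in replicate 1 (25.9%; 29.3% of all genes tested) and 40 higher in replicate 2 (17.5%; 27.7% of all genes tested).

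More members than genes at large were far apart between the libraries. By TMM 42 of the 228 (18.4%) were at least 2-fold apart, against 8.59% of all genes tested; 24 were higher in replicate 1 (10.5%; 2.77% of all) and 18 higher in replicate 2 (7.89%; 5.82% of all). The median size of the log2 ratio was 0.40 in members and 0.26 in all genes tested. The counts behind these ratios were modest: the median member had 215 reads in replicate 1 and 213 in replicate 2, and 89 had under 100 reads in at least 1 library. Of the 42 members 2-fold apart, 6 were of low, 17 of middle and 19 of high sharing.

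The largest ratios with 100 or more reads were spread over several families. Higher in replicate 1 were Gm6472, a copy of the ribosomal gene Rps7 (366 reads in replicate 1 and 34.9 in replicate 2, log2 ratio 3.52, adjusted p = 2.35e-77 by the exact binomial test), Gm10221, a copy of the ATP synthase subunit gene Atp5l (222 and 22.3 reads, 3.46), Gm12338 (569 and 99.4 reads, 2.67), and Gm4617, a copy of the prothymosin gene Ptma (1051 and 306 reads, 1.93). Higher in replicate 2 were Gm12191, a copy of Rpl30 (16.9 reads in replicate 1 and 447 in replicate 2, log2 ratio -4.52, adjusted p = 1.81e-98 by the exact binomial test), Serpina4-ps1 (138 and 2134 reads, -3.79), Gm13456 (-3.40), Gm10263, a copy of Rps28 (54.5 and 622 reads, -3.36), and Rpl3-ps1 (88.6 and 851 reads, -3.10). Among these 9, Serpina4-ps1, a relative of the plasma serine protease inhibitor genes, is the only member with an SD of 0, and no parent was found for it. Gm13456, at 3.10%, and Gm10263, at 4.92%, followed with the next lowest SD. The highest were Gm12191 at 41.3%, Gm10221 at 27.3%, Gm12338 at 15.3% and Gm6472 at 11.8%. The exact binomial test does not take the SD into account.

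The copies of Rps28 had ratios of opposite sign. Gm10443 was higher in replicate 1 (log2 ratio 0.43, adjusted p = 0.00486 by the exact binomial test) and Gm10263 in replicate 2, while Rps28 had 314 TPM in replicate 1 and 431 in replicate 2. The call of Gm10443 was lost by total reads (log2 ratio 0.30), by spike-ins (0.27) and where intervals of 2 posterior SDs had to be apart. In the coding window where they differ most from Rps28, Gm10443 had 0 differences and Gm10263 had 1. They lie at chr6:86334134-86334193 (plus), chr13:73317957-73318016 (plus) and chr17:33823255-33823314 (minus).
Gm10443: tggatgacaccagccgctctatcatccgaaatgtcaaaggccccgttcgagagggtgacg
Gm10263: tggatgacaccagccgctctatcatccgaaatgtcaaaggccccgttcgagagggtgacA
Rps28: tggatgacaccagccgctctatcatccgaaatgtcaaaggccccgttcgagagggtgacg

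Because the division of reads between copy and parent is an estimate, reads of each member and its parent were also added before the ratio was taken. Among the 211 members whose parent was listed, 39 were at least 2-fold apart alone. After the sum 5 of these were still 2-fold apart, 34 were not, and 13 had the opposite sign. The median size of the log2 ratio was 0.40 for the members alone, 0.19 for the sums and 0.20 for the parents alone. Part of this follows from arithmetic, since the median 2-fold member held only 4.56% of the reads of its pair. Gm12191 had a log2 ratio of -4.52 alone and 0.27 with Rpl30 added, Gm6472 3.52 alone and 0.24 with Rps7, Gm12338 2.67 alone and 0.24 with Cox7c, and Gm13456 -3.40 alone and -0.0017 with Eef1a1.

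In all 7 sums were 2-fold apart, and 2 of these members were not so alone. The 5 that stayed were H2-Q5, Oas1b, Cyp21a2-ps, Gm21092 and Mrgprb11-ps. H2-Q5 had 129 reads in replicate 1 and 453 in replicate 2, and its relative H2-Q7 had 3174 and 12349, so the sum stood at a log2 ratio of -1.80. Oas1b had 73 and 206 reads and Oas1g 42.4 and 155.7, with a sum at -1.49. Cyp21a2-ps, the pseudogene of the adrenal steroid 21-hydroxylase gene, had 226 and 660 reads, while Cyp21a1 had 7.40 and 1.02 reads. Gm21092, the most abundant of 3 members matched to the cadherin gene Cdh11, had 756 and 2103 reads against 17 and 22 for Cdh11. Mrgprb11-ps had 244 reads in replicate 1 and 108 in replicate 2, and its parent Mrgprb2 was at 0 in both. In their longest M21 transcripts, Gm21092, Oas1b and Mrgprb11-ps shared no 76-base window with the parent. Over those windows the sum does not bear on how their reads were divided. For Gm21092, 75.2% of the windows occurred in transcripts of other genes. Its M21 transcript has 955 bases against 3847 listed, so its windows may not cover all that was counted. The other 2 came from the parent: Gm4735 had 252 and 212 reads while Eno1b, itself with an SD of up to 23.3% of its reads, had 52.9 reads in replicate 1 and 10150 in replicate 2, and Gm20691 had 29.8 and 26.1 reads against 598 and 1401 for Gga3.

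**Figure D5:**
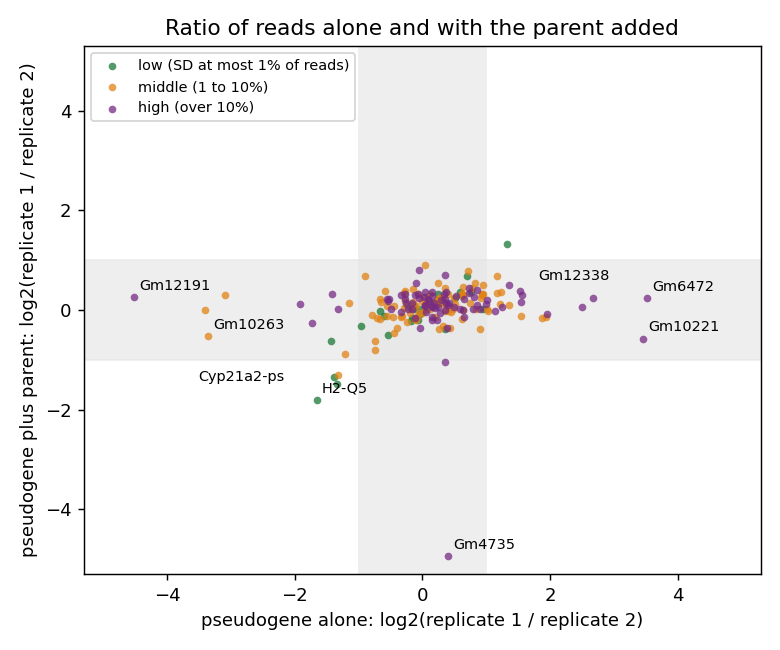
Log2 ratio of reads, replicate 1 over replicate 2, for each pseudogene alone (horizontal) and for pseudogene plus parent (vertical), 211 pairs, coloured by grade of read sharing; grey bands mark ratios under 2-fold. Of 39 pseudogenes outside the vertical band 34 fall inside the horizontal one, and Gm4735 lies far below it.

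TPM of the shortest copies rested on few reads and very small effective lengths. In 10 members the effective length was under 100 bases in at least 1 library. They held 8.21% of member TPM in replicate 1 and 3.21% in replicate 2, on 0.339% and 0.254% of member reads. Gm8325 had an effective length of 3.04 bases in replicate 1 and 9.67 in replicate 2, and its 58.0 and 11.2 reads became 391 and 23.6 TPM. Gm12338, with 7.76 and 15.3 bases, had 1504 and 132 TPM. Gm10774 had nearly equal reads, 1161 in replicate 1 and 1148 in replicate 2, but 1424 and 891 TPM. Levels of these 10 in TPM therefore differ between libraries partly through the effective length by which reads were divided.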

How the data were processed

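Both libraries have a deposited gene table on mm10, per the file names, with estimated counts, effective lengths, TPM, FPKM and a posterior SD of the count per gene. Per the deposited files the estimated counts are whole or fractional reads per gene, TPM and FPKM are scaled for length and depth, and the posterior SD is a score of the authors' counting program; the sources used here name neither the program nor its version. Gene types, transcripts and positions came from GENCODE M21 on GRCm38, matched by stable identifier; 884 of 43346 genes had no match. Parents came from BLAST 2.17.0 alignments and printed windows from Biopython 1.88 alignments; windows were chosen within the parent's coding region where its copies differ most. Counts were rounded and scaled in edgeR 4.0.16 (R 4.3.3), with DESeq2 1.42.0 size factors, total reads and spike-ins as alternatives, and tested in SciPy 1.17.1; ratios used a prior count of 0.5. Steps were tested on simulated data. The limit for a count of 0 covers counting error only. Intervals of 2 posterior SDs leave counting error out, since that SD was 0 in both libraries for 22 members with reads. FPKM served 1 alternative. Named members were the 10 highest in TPM, the 10 highest of low sharing, the 5 largest ratios each way at 100 or more reads, and the 2 highest of each family with at least 2 members; 1 member selected this way is not reported here; others named, such as those 2-fold apart as a sum or above their parent, were chosen after their values were seen. Members and lists were chosen with earlier results of these data known.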

Additional observations from a re-analysis of the deposited data

How the results depend on the processing

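The count of 228 pseudogenes was 306 at 0.5 TPM, 174 at 2 TPM and 207 by FPKM, and 260 to 280 with 1 library left out. With a minimum of 100 reads in both libraries, an alternative chosen after seeing the data, it was 139, and with an effective length of 100 bases or more, chosen likewise, 218. The grades rested on their limits. With a low limit of 5%, 92 members were of low and 54 of middle sharing; with a high limit of 20%, 157 were of middle and 29 of high sharing. With 1 library left out the grades held 42 to 46, 108 to 120 and 66 to 74 members. A parent was found for 207 to 215 members under the alignment alternatives. At 1.5-fold, 83 members were apart alone and 18 after adding the parent. The log2 ratio of Gm10222 was -0.082 by total reads and -0.11 by spike-ins, against 0.048 by TMM, and that of 9030619P08Rik -0.0066 by spike-ins, against 0.15; scaling shifts all ratios equally. Over the 41 members named by rule, 14 other values lost their call under an alternative and 4 gained one, with the same direction. No paired analysis was possible because the design has 1 group. Members under 20 reads in both libraries together would not have been tested, but none was that low.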
